A study of Mus musculus with 26 samples.

Results

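The genes described here are 37 members of the ATF4 and amino acid response programme, matched by mouse symbol to the counted genes of 6 RNA-seq libraries. All 37 symbols matched, out of 54146 counted gene identifiers, and 34 of the 37 passed the filter on low counts, against 12986 of all identifiers. The list was set by gene name with earlier results for these same libraries known, so its counts are a description and not independent evidence. The libraries came from a mouse model of acute myeloid leukemia, in which lineage-negative bone marrow cells received the MLL-AF9 (MA9) fusion oncogene by retrovirus. The MA9+SETDB1 group (3 libraries) also received SETDB1, an enzyme that methylates histone H3 at lysine 9, and the MA9+EV group (3 libraries) the empty MSCVpuro vector. Both groups thus carried MLL-AF9 and a puromycin-resistance vector, were cultured for 8 to 12 weeks in medium holding the cytokines IL-3 and SCF, and went through 3 to 6 weeks of puromycin selection. Whether the libraries of a group go back to separate transductions is not stated, so p-values reflect only how these libraries vary, which may be technical. Levels are CPM, that is counts per 1e6 gene counts after TMM scaling.

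ATF4 is a bZIP transcription factor at the end of the integrated stress response. When a kinase such as GCN2 (amino acid shortage), PERK (unfolded protein in the endoplasmic reticulum), HRI (heme shortage) or PKR (double-stranded RNA) phosphorylates eIF2 alpha, bulk translation falls while the ATF4 message is translated better. ATF4 then induces genes for amino acid synthesis and import and for mitochondrial folate metabolism, together with feedback and death regulators, often with a C/EBP protein as its partner. Because ATF4 is set largely by translation, its transcript level is not a measure of its protein, which was not measured here.

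The composite site that ATF4 and C/EBP proteins bind can be written TGATGNAA. It was searched on both strands of the RefSeq promoter windows of GRCm38.p6, which run from 250 bases before to 50 bases after a transcript's start, and 31 of the 37 members have 39 windows there. Eif4ebp1, Cth, Aldh1l2, Slc7a5, Slc1a5 and Slc7a3 had no entry. These letters were present for 12 of the 31 members (38.7%), namely Asns, Chac1, Got1, Herpud1, Jdp2, Nupr1, Pck2, Pycr1, Slc1a4, Slc7a11, Trib3 and Vldlr, against 1219 of 27025 genes (4.51%) and 3.97% of all windows. Several members are known in the field through such sites, so the share is a description of the list. The 250 bases before the start are shown for 4 members that recur in the results, with the motif in capitals, to show its place and orientation. They are written 5′ to 3′ on the gene's own strand.
Asns (chr6:7693210-7693459, minus strand): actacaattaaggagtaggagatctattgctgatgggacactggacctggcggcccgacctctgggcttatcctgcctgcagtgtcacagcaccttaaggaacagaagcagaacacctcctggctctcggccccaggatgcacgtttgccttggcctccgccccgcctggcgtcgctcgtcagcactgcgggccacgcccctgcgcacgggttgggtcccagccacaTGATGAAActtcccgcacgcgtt
Chac1 (chr2:119350992-119351241, plus strand): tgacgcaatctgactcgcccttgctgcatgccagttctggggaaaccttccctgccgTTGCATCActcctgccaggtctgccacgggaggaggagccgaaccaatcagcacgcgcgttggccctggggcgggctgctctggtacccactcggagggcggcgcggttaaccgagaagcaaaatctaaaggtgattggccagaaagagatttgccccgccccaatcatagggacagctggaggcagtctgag
Pycr1 (chr11:120643749-120643998, minus strand): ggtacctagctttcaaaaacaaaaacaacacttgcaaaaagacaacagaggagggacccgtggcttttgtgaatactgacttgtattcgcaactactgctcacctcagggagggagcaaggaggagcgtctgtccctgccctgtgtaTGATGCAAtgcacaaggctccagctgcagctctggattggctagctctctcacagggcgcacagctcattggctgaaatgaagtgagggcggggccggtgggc
Slc7a11 (chr3:50443614-50443863, minus strand): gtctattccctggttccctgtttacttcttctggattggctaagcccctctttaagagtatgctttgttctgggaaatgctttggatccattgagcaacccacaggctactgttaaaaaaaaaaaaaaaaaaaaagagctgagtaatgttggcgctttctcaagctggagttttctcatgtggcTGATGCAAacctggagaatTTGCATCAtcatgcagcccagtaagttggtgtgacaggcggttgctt
The motif of Asns began 23 bases before the start, that of Pycr1 103 bases and that of Chac1 193 bases before it. Slc7a11 held a facing pair, beginning 66 and 47 bases before the start. For 3 more members described below, only the site and the bases around it are shown, to compare their letters.
Jdp2 (chr12:85599374-85599399, plus strand): agccggggcTGATGCAAcccgtcccg
Slc1a4 (chr11:20332701-20332726, minus strand): cctcctgcgTTGCATCAtctccagcc
Trib3 (chr2:152344030-152344055, minus strand): agctcaggtTTACATCAgccgggcgg
Jdp2 and Slc1a4 shared the 8 letters, on opposite strands, while Trib3 had another base at the free position and its site lay after the start.

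Gene counts per library lay between 18070482 and 22561757. Setdb1 stood at 475, 605 and 607 CPM in MA9+SETDB1 replicates 1, 2 and 3, against 105, 108 and 109 CPM in MA9+EV replicates 1, 2 and 3. Of the myeloid progenitor markers, Spi1 averaged 209 CPM in MA9+SETDB1 and 195 CPM in MA9+EV, while 5 of 7 tested markers, with Hoxa9, Meis1 and Myb among them, were lower in MA9+SETDB1 and Cd34 was higher, at a mean of 9.43 CPM in MA9+SETDB1 and 0.155 CPM in MA9+EV. Blood lineage markers differed widely between the groups. Of 11 mast cell and basophil markers 10 were higher, their summed level running from 12370 to 12770 CPM in MA9+SETDB1 and from 162 to 203 CPM in MA9+EV, where Tpsb2 had no counts. The remaining marker, Kit, was lower, at a mean of 1.07 CPM in MA9+SETDB1 and 114 CPM in MA9+EV. Of 11 tested erythroid markers 10 were higher, with sums of 2929 to 3131 CPM in MA9+SETDB1 and 934.5 to 961 CPM in MA9+EV, where Alas2 and Car1 had no counts. The MA9+EV sums were nearly all Tfrc, the transferrin receptor gene, which was the tested marker not called and averaged 1114 CPM in MA9+SETDB1 and 937 CPM in MA9+EV. All 9 neutrophil granule markers were lower, with sums of 44.1 to 127 CPM in MA9+SETDB1 and 13720 to 16110 CPM in MA9+EV. Monocyte markers summed to 747 to 1653 CPM in MA9+SETDB1 and 2454 to 4221 CPM in MA9+EV, with 2 of 8 higher and 6 lower. The higher ones were Csf1r and Adgre1. Adgre1 was the largest part of the MA9+SETDB1 sum, at a mean of 923 CPM against 11.1 CPM in MA9+EV. Among the lower ones, Ly6c2 and Ccr2 averaged 291 and 88.4 CPM in MA9+SETDB1, and Lyz2, F13a1, Mpeg1 and Cd14 at most 1.58 CPM. The part of these lineage differences in the results on the members was not tested, and in bulk RNA fewer cells of a type and less RNA per cell cannot be told apart. B cell and T and NK cell markers summed to at most 4.01 and 6.76 CPM in any library, with Pax5, Ms4a1, Cd3e, Cd8a, Ncr1 and Klrb1c at 0 in all 6. Stromal and endothelial markers summed to 127 to 134 CPM in MA9+SETDB1 and 230.0 to 365 CPM in MA9+EV, with Cdh5 at 0 in all 6. Nearly all of that was Pecam1, which leukocytes also express, at a mean of 129 CPM in MA9+SETDB1 and 319.8 CPM in MA9+EV, and the other 6 markers each had at most 0.364 CPM in any library.

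The programme did not move as a block between MA9+SETDB1 and MA9+EV. Of the 8 feedback and stress effector genes, Ppp1r15a, Ddit4 and Sesn2 were higher in MA9+SETDB1 and Herpud1 lower. Of the regulator genes, Ddit3 was higher and Jdp2 and Atf5 lower, and Atf4 itself did not pass the test. Among enzyme genes Asns was higher, while Psph, Phgdh and Shmt2 of serine and glycine synthesis, Cth of cysteine synthesis and Gpt2 were lower. The transporter genes Slc3a2 and Slc6a9 were higher and Slc1a4 and Slc1a5 lower, as was the tRNA exportin gene Xpot. By edgeR's quasi-likelihood test, 7 of the 34 tested members were higher and 11 lower at a Benjamini-Hochberg adjusted p under 0.05 over all 12986 genes tested. Over all genes 27.4% were higher and 26.2% lower, together 53.5%, so the share of members called, 18 of 34, was near the background. All 18 had groups that did not overlap, 7 with MA9+SETDB1 above and 11 below, a pattern found for 64.6% of all tested genes (32.1% above, 32.5% below). The median log2 fold change (MA9+SETDB1 over MA9+EV) was -0.25 for the 34 members and -0.01 for all tested genes.

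**Figure D1:**
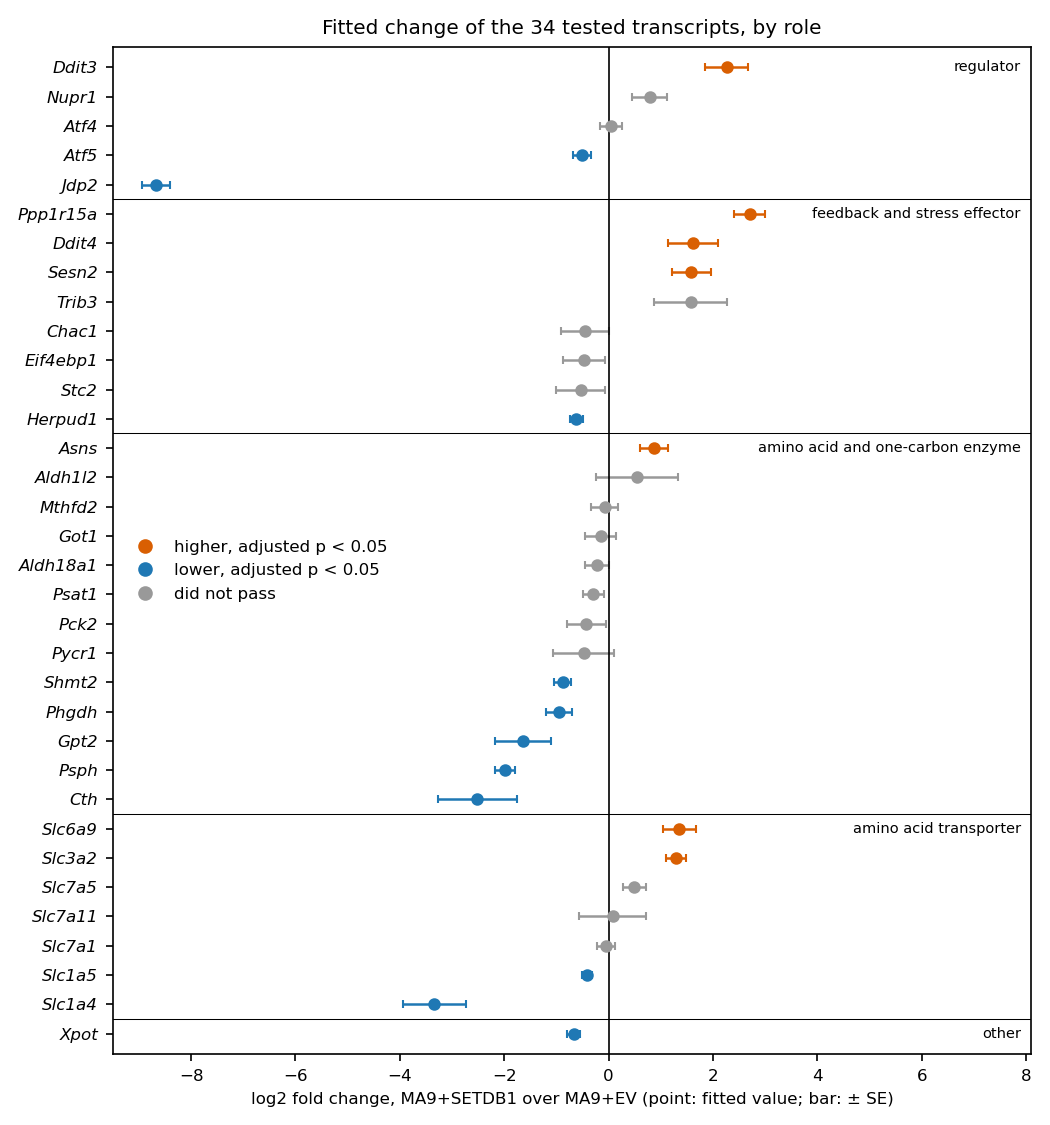
Fitted log2 fold change of each tested member, MA9+SETDB1 over MA9+EV, on the horizontal axis, with the genes grouped by role on the vertical axis; points are fitted values and bars 1 SE. The 7 higher genes are orange and the 11 lower genes blue. Stress effectors had 3 of 8 higher and 1 lower, and tested enzymes 1 of 13 higher and 5 lower. Of 7 tested transporters 2 were higher and 2 lower. Of all tested genes 27.4% were higher and 26.2% lower. Jdp2 lies far to the left at -8.68.

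Among the 5 regulators, 1 rose and 2 fell, where 27.4% of all genes were higher and 26.2% lower. Atf4 had 556, 909 and 902 CPM in MA9+SETDB1 replicates 1, 2 and 3, against 701, 786 and 813 CPM in MA9+EV replicates 1, 2 and 3. The groups overlapped, with the lowest and the highest library both in MA9+SETDB1, and the log2 fold change was 0.04 (SE 0.21 and edgeR adjusted p = 0.881). With both replicates 1 left out Atf4 was called higher, by 0.19 on the log2 scale (edgeR adjusted p = 0.001), in a fit that calls 79.2% of all genes. Ddit3, which encodes the pro-apoptotic factor CHOP, had 23.2, 62.8 and 59.4 CPM in MA9+SETDB1, compared with 7.02, 11.6 and 11.5 CPM in MA9+EV. Each MA9+SETDB1 library was above each MA9+EV library, and Ddit3 rose by 2.27 on the log2 scale (SE 0.41 and edgeR adjusted p = 0.00347). Its span overlaps that of Mars1 and Mbd6, and no source used here gives the strand setting of the counting. Atf5, a related bZIP factor gene that is also controlled by translation, had 44.1, 69.5 and 66.2 CPM in MA9+SETDB1 and 81.5, 86.2 and 88.5 CPM in MA9+EV. Its groups did not overlap, with a fitted change of -0.51 (SE 0.18 and edgeR adjusted p = 0.0462).

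The call of Atf5 was lost under 7 of 14 alternatives: its edgeR adjusted p was 0.0700 without MA9+SETDB1 replicate 3, 0.0713, 0.106 and 0.115 without MA9+EV replicates 1, 2 and 3, 0.0527 with DESeq2 size factors, 0.0502 with a stricter filter on low values and 0.141 with replicates 2 and 3 of each group summed to 1 library. Jdp2, a repressor of AP-1 and ATF-type factors, had 3, 1 and 4 counts in MA9+SETDB1 replicates 1, 2 and 3, against 1714, 1443 and 1195 counts in MA9+EV. The transcript was thus near absent from every MA9+SETDB1 library, and the log2 fold change was -8.68 (SE 0.27 and edgeR adjusted p = 2.47e-06). Nupr1, a small stress-induced chromatin protein gene, had 20.7, 39.9 and 38.2 CPM in MA9+SETDB1 and 12.3, 22.5 and 22.5 CPM in MA9+EV. Here the replicate 1 library was the lowest of each group, and the groups overlapped through it. The fitted change of Nupr1 was 0.79 (SE 0.33 and edgeR adjusted p = 0.0842). With the replicate block, which pairs libraries by replicate number, Nupr1 passed at an edgeR adjusted p of 0.0029. For numbers 2 and 3 that pairing rests on the numbers alone. Nupr1 also passed by DESeq2's Wald test (adjusted p = 0.0458) and, by edgeR, without MA9+SETDB1 replicate 1 (adjusted p = 0.0165). It did not pass with replicates 2 and 3 of each group summed (edgeR adjusted p = 0.253).

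Of 8 feedback and stress effector genes, 3 rose and 1 fell, against 27.4% of all genes higher and 26.2% lower. Ppp1r15a encodes GADD34, which directs a phosphatase to eIF2 alpha and so ends the response. It had 108, 131 and 134 CPM in MA9+SETDB1, compared with 11.3, 22.0 and 24.1 CPM in MA9+EV, a rise of 2.70 on the log2 scale (SE 0.29 and edgeR adjusted p = 0.000352). Every MA9+SETDB1 library was far above every MA9+EV library. Sesn2, whose product senses leucine and restrains mTORC1, had 112, 205 and 193 CPM in MA9+SETDB1 and 29.9, 71.8 and 68.4 CPM in MA9+EV. Ddit4, whose product REDD1 also restrains mTORC1, had 109, 134 and 133 CPM in MA9+SETDB1 and 14.0, 55.9 and 52.8 CPM in MA9+EV. Both rose without overlap, by 1.59 (SE 0.38 and edgeR adjusted p = 0.0111) and 1.62 (SE 0.47 and edgeR adjusted p = 0.0252). For Ddit4 the edgeR adjusted p was 0.0629 without MA9+SETDB1 replicate 2 and 0.0638 without MA9+SETDB1 replicate 3. With replicates 2 and 3 of each group summed, it was 0.0563 for Sesn2 and 0.0810 for Ddit4. The ratio of Ddit4 between the groups was 7.82 within replicate number 1, and 2.39 and 2.52 within numbers 2 and 3.

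Trib3, a pseudokinase gene that feeds back on ATF4 and CHOP, had 47.7, 183 and 191 CPM in MA9+SETDB1 and 14.2, 66.5 and 61.6 CPM in MA9+EV. MA9+SETDB1 replicate 1 lay below MA9+EV replicates 2 and 3, so the groups overlapped, although the ratio within each replicate number was 3.35, 2.76 and 3.10. The fitted change of Trib3 was 1.57 (SE 0.69 and edgeR adjusted p = 0.0960), and it passed at an edgeR adjusted p of 0.000275 with the replicate block and of 0.0275 without MA9+SETDB1 replicate 1, and by DESeq2's Wald test at an adjusted p of 0.0225, but not with replicates 2 and 3 summed (edgeR adjusted p = 0.244). Chac1, which encodes a glutathione-degrading enzyme, had 9.96, 28.9 and 26.4 CPM in MA9+SETDB1 and 16.0, 37.6 and 35.7 CPM in MA9+EV. The groups overlapped again through replicate 1, with a fitted change of -0.45 (SE 0.47 and edgeR adjusted p = 0.444, or 0.0187 with the replicate block). Stc2, a secreted stress-induced glycoprotein gene, had 72.2, 168 and 163 CPM in MA9+SETDB1 and 88.2, 254 and 242 CPM in MA9+EV (edgeR adjusted p = 0.367, or 0.0111 with the replicate block). Eif4ebp1, the gene of the translation repressor 4E-BP1, ranged from 57.6 to 121 CPM in MA9+SETDB1 and from 69.9 to 174 CPM in MA9+EV (edgeR adjusted p = 0.366, or 0.0112 with the replicate block). Both had fitted values below 0 and overlapping groups. Herpud1, of endoplasmic reticulum associated degradation, fell to 78.7, 79.3 and 87.2 CPM in MA9+SETDB1, compared with 145, 114 and 116 CPM in MA9+EV (edgeR adjusted p = 0.00564). Unlike the other 7 genes of this role it had its highest MA9+EV value in replicate 1.

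**Figure D2:**
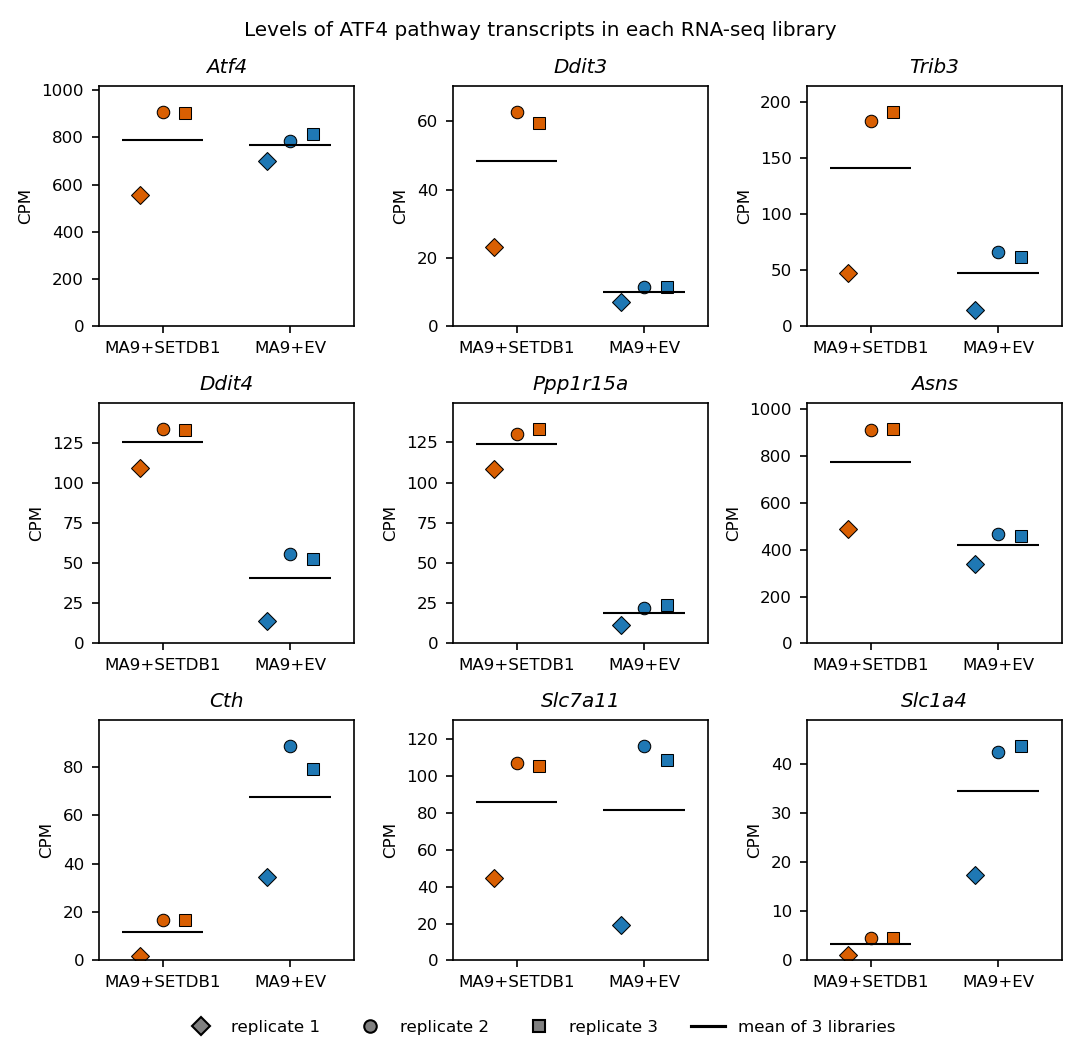
CPM of 9 members in each of the 6 RNA-seq libraries, on linear axes from 0, with MA9+SETDB1 in orange and MA9+EV in blue; marker shapes give the replicate number and lines the mean of 3 libraries. Replicate 1 (diamonds) is the lowest library of its group in all 9 panels, while replicates 2 and 3 lie close together.

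Of the 13 tested enzyme genes 1 rose and 5 fell, against 27.4% of all genes higher and 26.2% lower. Asns, the asparagine synthetase gene, had 491, 913 and 918 CPM in MA9+SETDB1, compared with 338, 468 and 459 CPM in MA9+EV. All 3 MA9+SETDB1 libraries were above MA9+EV, replicate 1 by a small margin, and the log2 fold change was 0.88 (SE 0.27 and edgeR adjusted p = 0.0302). The call was lost without MA9+SETDB1 replicate 2 or 3 (edgeR adjusted p = 0.0948 and 0.0955) and without MA9+EV replicate 1, 2 or 3 (edgeR adjusted p = 0.0854, 0.0626 and 0.0673). The serine synthesis pathway runs from Phgdh through Psat1 to Psph. Psph had 15.6, 19.8 and 22.1 CPM in MA9+SETDB1 and 61.7, 89.9 and 77.0 CPM in MA9+EV, a fitted change of -1.99 (SE 0.19 and edgeR adjusted p = 0.000239), the clearest separation of the enzyme genes by p. Phgdh had 27.9, 51.2 and 54.7 CPM in MA9+SETDB1 and 77.8, 97.1 and 83.0 CPM in MA9+EV, a fitted change of -0.95 (edgeR adjusted p = 0.0179, but 0.0594 without MA9+EV replicate 2). Psat1 lay between, at 376, 545 and 575 CPM in MA9+SETDB1 and 515, 679 and 638 CPM in MA9+EV (edgeR adjusted p = 0.249). The first and last steps were thus lower in MA9+SETDB1, while the groups overlapped for the middle step.

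Shmt2, the mitochondrial enzyme that splits serine into glycine and a one-carbon unit, fell to 223, 283 and 284 CPM in MA9+SETDB1, compared with 395, 536 and 524 CPM in MA9+EV (log2 fold change -0.88, SE 0.17 and edgeR adjusted p = 0.00423, but 0.0551 with replicates 2 and 3 summed). Mthfd2, the next enzyme of mitochondrial folate metabolism, had 139, 255 and 259 CPM in MA9+SETDB1 and 188, 257 and 244 CPM in MA9+EV, and did not pass (edgeR adjusted p = 0.824). Aldh1l2, a mitochondrial folate dehydrogenase gene, had 4.98, 19.7 and 19.5 CPM in MA9+SETDB1 and 1.90, 14.0 and 14.4 CPM in MA9+EV (edgeR adjusted p = 0.586). Its spread between libraries of one group exceeded the difference between the groups. Cth, which makes cysteine from cystathionine, had 1.85, 16.9 and 16.7 CPM in MA9+SETDB1, compared with 34.7, 88.9 and 79.2 CPM in MA9+EV. The groups were apart throughout, with a log2 fold change of -2.52 (SE 0.75 and edgeR adjusted p = 0.0272). Without MA9+SETDB1 replicate 3 or MA9+EV replicate 2 or 3 the edgeR adjusted p of Cth was 0.0518, 0.0766 and 0.0695. Cbs, the preceding enzyme, was not tested, with 0, 5 and 0 counts in MA9+SETDB1 and 8, 10 and 6 in MA9+EV.

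Gpt2, the mitochondrial alanine transaminase gene, had 16.2, 44.4 and 44.4 CPM in MA9+SETDB1, compared with 45.6, 145 and 137 CPM in MA9+EV. The lowest MA9+EV library was just above the highest MA9+SETDB1 library, and the fitted change was -1.64 (SE 0.54 and edgeR adjusted p = 0.0374). That call was lost without any one of MA9+SETDB1 replicates 1, 2 and 3 (edgeR adjusted p = 0.0650, 0.0636 and 0.0654) and without MA9+EV replicates 2 and 3 (edgeR adjusted p = 0.107 and 0.100). Pycr1 and Aldh18a1 of proline synthesis, the aspartate transaminase gene Got1 and the mitochondrial PEP carboxykinase gene Pck2 did not pass. Pycr1 had 7.05, 29.6 and 29.7 CPM in MA9+SETDB1 and 14.8, 37.5 and 39.9 CPM in MA9+EV (edgeR adjusted p = 0.524, or 0.0387 with the replicate block). Pck2 ranged from 55.5 to 129 CPM in MA9+SETDB1 and from 88.7 to 175 CPM in MA9+EV (edgeR adjusted p = 0.367, or 0.0151 with the replicate block). For Aldh18a1 and Got1 the fitted values were -0.22 and -0.15 on the log2 scale, with edgeR adjusted p-values of 0.461 and 0.697.

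Of 7 tested transporter genes, 2 rose and 2 fell, against 27.4% of all genes higher and 26.2% lower. Slc3a2 encodes the heavy chain CD98, which carries the light chains Slc7a5 (large neutral amino acids) and Slc7a11 (cystine for glutamate) to the membrane. It had 665, 875 and 838 CPM in MA9+SETDB1, compared with 247, 359 and 361 CPM in MA9+EV, a rise of 1.30 on the log2 scale (SE 0.19 and edgeR adjusted p = 0.00154). The light chain genes did not pass. Slc7a5 had 524, 724 and 666 CPM in MA9+SETDB1 and 325, 528 and 507 CPM in MA9+EV (log2 fold change 0.49, edgeR adjusted p = 0.101). It passed at an edgeR adjusted p of 0.0135 with the replicate block and of 0.0445 without MA9+SETDB1 replicate 1. Slc7a11 had 44.9, 107 and 105 CPM in MA9+SETDB1 and 19.2, 116 and 109 CPM in MA9+EV. Its ratio between the groups was 2.34 within replicate number 1 but 0.92 and 0.97 within numbers 2 and 3, and the fitted change was 0.08 (SE 0.65 and edgeR adjusted p = 0.930).

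Slc1a4 and Slc1a5 encode the neutral amino acid exchangers ASCT1 and ASCT2. Slc1a4 had 1.06, 4.63 and 4.52 CPM in MA9+SETDB1, compared with 17.4, 42.5 and 43.7 CPM in MA9+EV, a fitted change of -3.34 (SE 0.60 and edgeR adjusted p = 0.00339). Slc1a5 had 239, 266 and 270 CPM in MA9+SETDB1, compared with 328, 346 and 359 CPM in MA9+EV, a smaller fall of 0.42 on the log2 scale (SE 0.10 and edgeR adjusted p = 0.0131, but 0.0564 without MA9+EV replicate 3). The glycine transporter gene Slc6a9 rose to 20.1, 27.9 and 22.6 CPM in MA9+SETDB1, compared with 5.33, 11.0 and 11.3 CPM in MA9+EV (log2 fold change 1.36, SE 0.31 and edgeR adjusted p = 0.00969, but 0.0579 with replicates 2 and 3 summed). Slc7a1, the CAT-1 transporter of arginine and lysine, stayed between 201 and 315 CPM in MA9+SETDB1 and between 269 and 284 CPM in MA9+EV (edgeR adjusted p = 0.816). Its paralog Slc7a3 was not tested, with at most 3 counts per library in MA9+SETDB1 and 9, 2 and 3 counts in MA9+EV. Xpot, the tRNA exportin gene, fell to 157, 197 and 194 CPM in MA9+SETDB1, compared with 290, 295 and 289 CPM in MA9+EV (log2 fold change -0.67, SE 0.12 and edgeR adjusted p = 0.00296). Vldlr, a lipoprotein receptor gene, was not tested and had 0, 1 and 0 counts in MA9+SETDB1 and 0, 40 and 33 counts in MA9+EV.

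Within each group, replicate 1 was lower than replicates 2 and 3 for nearly the whole programme, in MA9+SETDB1 and in MA9+EV alike. With 1 library against 2 no test was made. A gene was counted as past the threshold where replicate 1 lay outside the range of replicates 2 and 3 and more than 1.5-fold from their mean, among tested genes that averaged 1 CPM or more in the group. In MA9+SETDB1, 21 of 33 members were below by this measure and 0 above, against 14.1% of 11457 genes below, 13.2% above and 27.4% in all. In MA9+EV, 18 of 34 members were below and 0 above, against 14.2% of 11288 genes below, 6.59% above and 20.8% in all. Without a size limit, replicate 1 was below the mean of replicates 2 and 3 in both groups for 32 of 33 members, against 32.4% of 10361 genes, and Herpud1 was the exception. Jdp2, left out of the 33 because it averaged under 1 CPM in MA9+SETDB1, was also higher in MA9+EV replicate 1, at 70.8 CPM against 59.9 and 60.2 CPM in replicates 2 and 3. Replicate 1 was past 1.5-fold below in both groups for 14 of 33 members, against 4.57% of genes. The median log2 ratio of replicate 1 to the other libraries was -0.89 for members in MA9+SETDB1 and -0.70 in MA9+EV, and -0.01 and -0.02 for all genes. Tested members averaging 1 CPM or more in a group never differed by more than 1.5-fold between its replicates 2 and 3. Of all such genes, 2.92% did in MA9+SETDB1 and 2.19% in MA9+EV. Since earlier results of these libraries were known when the list was drawn up, none of these counts is independent evidence.

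**Figure D3:**
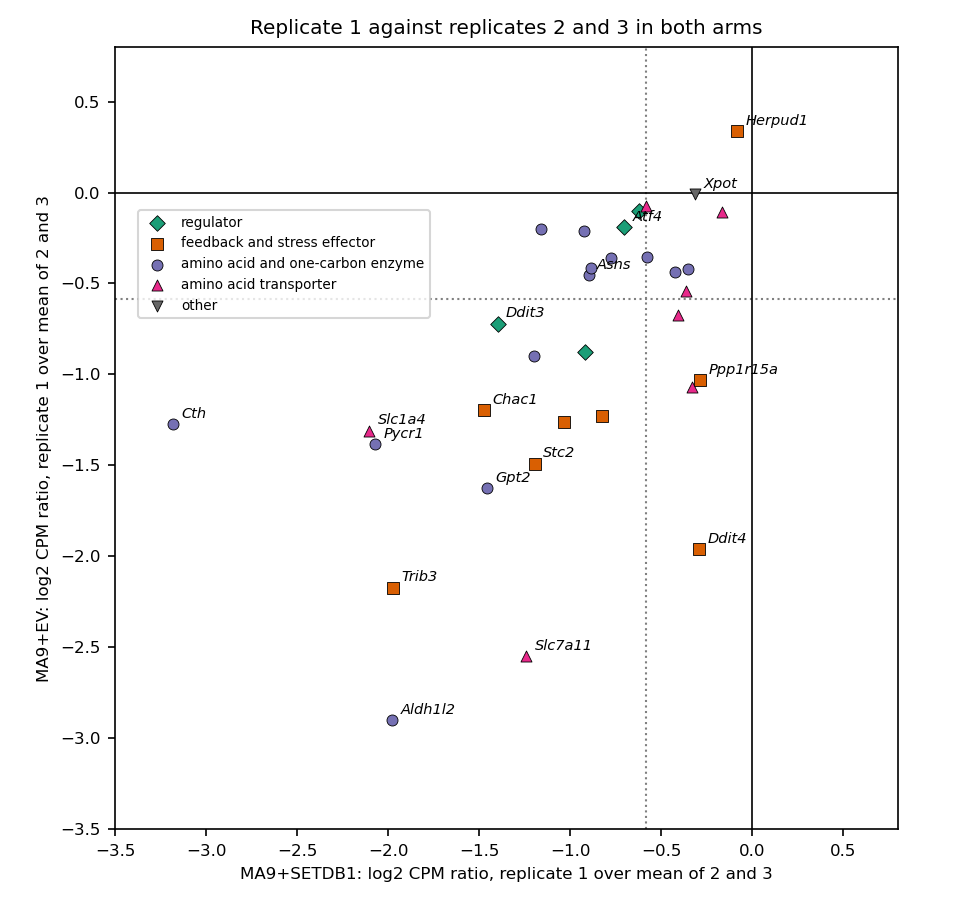
Log2 ratio of CPM in replicate 1 to the mean of replicates 2 and 3, for MA9+SETDB1 on the horizontal and MA9+EV on the vertical axis; each point is 1 of 33 members, shaped by role, and dotted lines mark 1.5-fold below. All points but Herpud1 lie in the lower left quadrant, and 14 lie past the dotted lines in both groups.

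The 6 widest replicate 1 differences in each group were as follows. In MA9+SETDB1 the log2 ratio was -3.19 for Cth, -2.11 for Slc1a4, -2.07 for Pycr1, -1.98 for Aldh1l2, -1.97 for Trib3 and -1.47 for Chac1. In MA9+EV it was -2.90 for Aldh1l2, -2.55 for Slc7a11, -2.17 for Trib3, -1.96 for Ddit4, -1.63 for Gpt2 and -1.49 for Stc2. Aldh1l2 and Trib3 were in both sets of 6. The size differed between the groups for some members, which was not tested. Ddit4 and Ppp1r15a had ratios of -0.29 and -0.28 in MA9+SETDB1, against -1.96 and -1.03 in MA9+EV, while Ddit3 had -1.40 in MA9+SETDB1 and -0.72 in MA9+EV. Atf4 itself had -0.70 in MA9+SETDB1 and -0.19 in MA9+EV. Across the 33 members the ratios of the 2 groups correlated with a Pearson's r of 0.558 and a Spearman's rho of 0.595, against 0.340 and 0.384 across 10359 genes. Genes are not independent replicates, each value rests on the same 3 libraries per group, and the values are a description. Members with the motif shown above had median log2 ratios of -1.22 in MA9+SETDB1 (10 members) and -0.90 in MA9+EV (11 members). Herpud1 and Jdp2, the tested members that were higher in MA9+EV replicate 1, are among those with the motif. Members whose windows did not hold it had -0.60 in MA9+SETDB1 and -0.43 in MA9+EV (18 members each). Members without a window, with Cth and Aldh1l2 among them, are in neither set. A site outside the windows would not be seen, and the difference between the sets was not tested.

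Other measures were set beside the replicate number. Of 9 neutrophil granule genes, 6 were past 1.5-fold above in MA9+EV replicate 1 and 0 below, against 6.59% of all genes above. In MA9+SETDB1 replicate 1, 5 of 11 erythroid genes were above and 2 below, 3 of 7 progenitor genes were above and 0 below, and 3 of 11 mast cell and basophil genes were above and 1 below, against 13.2% of all genes above and 14.1% below. In MA9+EV replicate 1, 3 of 8 monocyte genes were below and 0 above, against 14.2% of all genes below and 6.59% above. The 50 most abundant genes took 11.0% of counts in MA9+SETDB1 replicate 1, against 14.2% in each of replicates 2 and 3, and 10.7% in MA9+EV replicate 1, against 11.2% and 11.3%. Reads aligned to no gene took 5.51% in MA9+SETDB1 replicate 1, against 4.45% and 4.52% in replicates 2 and 3, and 5.06% in MA9+EV replicate 1, against 4.53% and 4.93%. Mitochondrial transcripts did not follow the replicate number in both groups and took 0.952%, 0.929% and 0.842% of counts in MA9+SETDB1 replicates 1, 2 and 3 and 1.17%, 1.06% and 1.39% in MA9+EV. The part of these in the replicate 1 difference was not tested, and no label gives a date, passage or medium per library. For 29 of the 34 tested members the direction between MA9+SETDB1 and MA9+EV was the same within each replicate number. The direction within number 1 differed from that within numbers 2 and 3 for Atf4, Got1, Slc7a1 and Slc7a11, and for Mthfd2 numbers 2 and 3 differed from each other. With the replicate number as a block, edgeR called 10 members higher and 16 lower, against 29.2% of all genes higher, 29.0% lower and 58.2% in all, so 8 members were gained, all named above, and none of the 8 was called with replicates 2 and 3 of each group summed. With both replicates 1 left out, 12 members were higher and 18 lower, against 39.7% of all genes higher, 39.5% lower and 79.2% in all. With replicates 2 and 3 of each group summed to 1 library, 3 members were higher and 5 lower, against 16.4%, 13.8% and 30.3% in all. With 1 library left out, 5 to 10 members were higher and 7 to 11 lower, against 60.6%, 42.2% and 43.4% of all genes without MA9+SETDB1 replicates 1, 2 and 3, and 52.9%, 43.6% and 43.3% without MA9+EV replicates 1, 2 and 3.

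Neighbouring parts of the pathway were read from 8 lists of 135 genes, also fixed with earlier results known. Of 128 tested, 28 were higher and 38 lower in MA9+SETDB1 by edgeR's test, which is near the 27.4% higher and 26.2% lower of all genes. Enzymes of serine, glycine and folate metabolism outside the programme were mostly lower, with 11 of 15 tested genes lower and 1 higher, against 26.2% and 27.4% of all genes, and a median log2 fold change of -0.65. They included Shmt1, the cytosolic counterpart of Shmt2 (-1.27), the cytosolic folate dehydrogenase gene Aldh1l1 (-5.20), the glycine cleavage gene Gcsh (-0.86) and Mthfd2l (-1.68). In replicate 1, 0 of 13 were past 1.5-fold below in MA9+SETDB1 and 1 of 14 in MA9+EV, against 14.1% and 14.2% of all genes. Other amino acid transporter genes had 10 of 14 lower and 3 higher, against the same shares of all genes. Slc36a4, an amino acid transporter of the proton-coupled family, stood at 0.448, 1.03 and 0.935 CPM in MA9+SETDB1, compared with 83.1, 90.4 and 92.6 CPM in MA9+EV, and Slc7a2, the CAT-2 gene, at 0, 0 and 0.0519 CPM in MA9+SETDB1 and 9.91, 11.8 and 10.7 CPM in MA9+EV. The CD98 partner gene Slc7a8 went the other way, between 723 and 809 CPM in MA9+SETDB1 and at 19.3 ± 5.79 CPM in MA9+EV (mean ± SD, n = 3), and Slc16a10, for aromatic amino acids, had a log2 fold change of 2.07.

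Cytosolic aminoacyl-tRNA synthetase genes, of which several are known ATF4 targets, had 3 of 20 higher and 2 lower, a smaller share than the 53.5% of all genes. Qars, Wars and Sars were higher and Iars and Dars lower, with log2 fold changes of 0.71, 0.89, 0.71, -0.69 and -0.45 (Sars, the fifth by p, named after its value was seen). Replicate 1 was past 1.5-fold below for 8 of the 20 in MA9+SETDB1 and for 0 in MA9+EV, against 14.1% and 14.2% of all genes. Genes for eIF2 kinases and translation initiation had 2 of 15 higher and 2 lower, against 27.4% and 26.2% of all genes. Eif2ak4 (GCN2) rose to 106, 91.4 and 87.9 CPM in MA9+SETDB1, compared with 71.1, 64.3 and 62.9 CPM in MA9+EV (log2 fold change 0.53, edgeR adjusted p = 0.00683). Eif2ak2 (PKR) fell to 42.1, 46.5 and 46.1 CPM in MA9+SETDB1, compared with 77.1, 80.8 and 95.8 CPM in MA9+EV (log2 fold change -0.91, edgeR adjusted p = 0.000795). Among subunit genes of the exchange factor eIF2B, Eif2b3 rose by 0.83 and Eif2b1 had a log2 fold change of -0.39. Of 11 tested bZIP partner genes 3 rose and 1 fell, against the same shares of all genes. Cebpg, whose product pairs with ATF4, had 152, 146 and 136 CPM in MA9+SETDB1, compared with 66.9, 83.3 and 84.2 CPM in MA9+EV (log2 fold change 0.89, edgeR adjusted p = 0.00103). Cebpb and Fos had log2 fold changes of 0.74 and 1.86, and Cebpd of -2.44.

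The list of endoplasmic reticulum chaperone and ATF6 and XBP1 branch genes, not all of them chaperone genes, had 6 of 20 higher and 2 lower in MA9+SETDB1. The shares of all genes were 27.4% higher and 26.2% lower. Pdia4, a disulfide isomerase gene, had 982, 2340 and 2284 CPM in MA9+SETDB1, compared with 427, 294 and 305 CPM in MA9+EV (log2 fold change 2.45, SE 0.36 and edgeR adjusted p = 0.00147). Edem1 and Pdia3 rose by 1.40 and 0.87 on the log2 scale, and Derl3, at no more than 1.07 CPM in any library, had a log2 fold change of -1.89. Replicate 1 was past 1.5-fold below for 10 of 19 genes in MA9+SETDB1 and above for 0. In MA9+EV, however, it was above for 9 of 19 and below for 1. Of all genes, 14.1% were below and 13.2% above in MA9+SETDB1, and 14.2% below and 6.59% above in MA9+EV. The median log2 ratios of replicate 1 were -0.65 in MA9+SETDB1 and 0.51 in MA9+EV. The BiP gene Hspa5, chosen after its values were seen, had 1553, 2059 and 2164 CPM in MA9+SETDB1 replicates 1, 2 and 3 and 2535, 1637 and 1562 CPM in MA9+EV replicates 1, 2 and 3. Members and many genes of this list were thus both low in MA9+SETDB1 replicate 1. In MA9+EV replicate 1, however, the members were low and many genes of this list high.

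**Figure D4:**
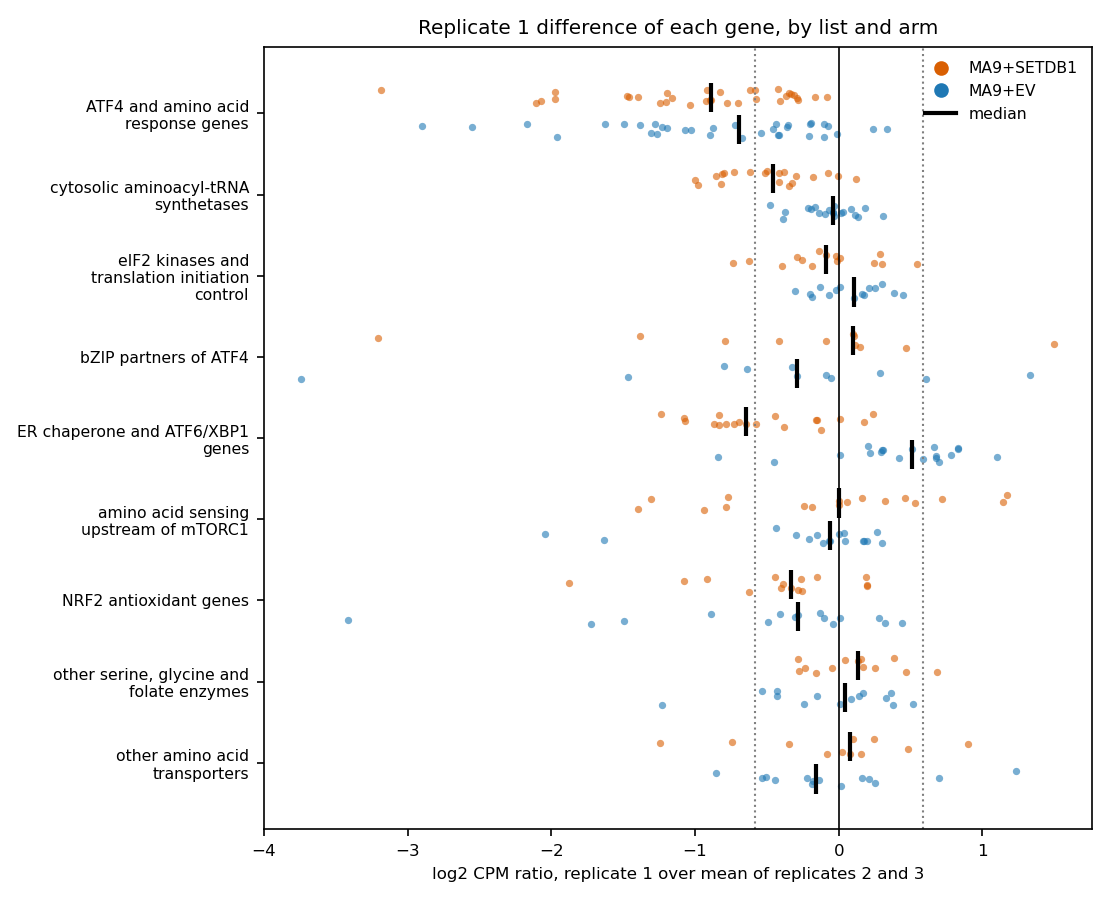
Log2 ratio of CPM in replicate 1 to the mean of replicates 2 and 3 for each gene averaging 1 CPM or more, by list, with MA9+SETDB1 (orange) above MA9+EV (blue); black bars are medians and dotted lines mark 1.5-fold. The members have medians of -0.89 in MA9+SETDB1 and -0.70 in MA9+EV. The list of chaperone and ATF6/XBP1 genes has -0.65 in MA9+SETDB1 and 0.51 in MA9+EV.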

How the data were processed

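Of 26 samples in the series, the 6 RNA-seq libraries had gene counts here; the 20 chromatin samples were not analysed here. The deposited values are raw read counts per Ensembl gene, 1 file per library, with 5 summary lines that were left out (24.6% to 26.3% of entries, mostly reads without a unique place). Poly-A selected, strand-specific libraries were made, per the labels' protocols. The submitters' processing notes name GRCm38, cutadapt 1.18, STAR 2.6.0c and HTSeq 0.11.0. Symbols matched 52480 identifiers by version, 1599 more by stable identifier and left 67 unmatched. Genes were filtered with filterByExpr, scaled by TMM and compared in edgeR 4.0.16 (R 4.3.3) by its quasi-likelihood test, adjusted over 12986 genes at 0.05; SEs were derived from the F statistic. DESeq2 1.42.0 was an alternative. The fit was tested on simulated data, which held no replicate 1 difference of the kind seen here. Depth sets a floor of 3 counts at 0.124 to 0.183 CPM per library, for counting error only. The spans of 12 members overlap another gene's, those of Atf5, Ddit3, Ppp1r15a, Psph, Shmt2, Slc7a3 and Slc6a9 a protein-coding one, and their counts are less certain.

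The members and lists were chosen with earlier results of these data known. Values per library were given for Atf4, Ddit3, Atf5, Trib3, Chac1 and Asns, the 10 called members with the largest fold change, the 6 with the largest replicate 1 difference per group, and other members; from each list the 4 genes with the smallest p were named. Deviations of same-numbered libraries from their group means correlated across genes at 0.278, 0.237 and 0.220, and the numbers were taken to pair the libraries. Replicates 2 and 3 were not told apart by these correlations, since number 2 of MA9+SETDB1 correlated with number 3 of MA9+EV at 0.215, or at 0.257 the other way. The values set only replicate 1 apart, and matching 2 with 2 and 3 with 3 rests on the numbers alone. Replicates 2 and 3 of a group differed from each other by more than sampling noise (chi-square per degree of freedom of 3.14 in MA9+SETDB1 and 4.29 in MA9+EV, against 78.3 to 102 for pairs with replicate 1).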

Additional observations from a re-analysis of the deposited data

How the results depend on the processing

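Of 476 values of single members under 14 alternatives, 402 kept their direction and their side of the threshold, 33 lost and 24 gained a call and 17 turned direction; 8 of 34 members kept theirs under all 14. No called member's value turned. Atf4 stood at -0.025 with upper-quartile factors and -0.043 with replicates 2 and 3 summed. With replicates 2 and 3 alone, Mthfd2 was 0.053, Got1 0.094, Slc7a1 0.11 and Slc7a11 -0.069. Leaving out 1 library gave log2 fold changes of -0.068 to 0.25 for Atf4, -0.21 to 0.18 for Mthfd2, -0.35 to 0.014 for Aldh18a1, -0.33 to 0.16 for Got1, -0.18 to 0.13 for Slc7a1 and -0.40 to 0.42 for Slc7a11.

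Leaving out 1 library gave 5 to 10 members higher, 7 to 11 lower, a median of -0.41 to -0.03, and 18 to 39 pathway genes higher and 28 to 40 lower. With replicates 2 and 3 alone, 12 members were higher and 18 lower, 55 pathway genes were higher, and 5314 of all genes were higher and 5285 lower, against 3554 and 3397 in the fit of all 6 libraries. With them summed to 1 library, 3 members were higher and 5 lower, 12 pathway genes were higher and 19 lower, and 2292 of all genes were higher and 1928 lower; Sesn2, Ddit4, Asns, Atf5, Phgdh, Shmt2, Cth, Gpt2, Slc1a5 and Slc6a9 then lost their call, and this fit has fewer libraries. With the replicate block, 10 members were higher and 16 lower; it changed no other call than the 8 named, and those 8 were not called with replicates 2 and 3 summed, where their adjusted p ran from 0.244 for Trib3 to 0.637 for Pycr1. Besides these 8, replicates 2 and 3 alone gave calls for Atf4 (0.001), Psat1 (0.000368) and Aldh1l2 (0.000124). At a fold of 2, 13 members in MA9+SETDB1 and 14 in MA9+EV were past the threshold in replicate 1, all below. Of all genes 6.28% were below at that fold in MA9+SETDB1 and 6.8% in MA9+EV. Over the 14 alternatives the highest adjusted p was 0.141 for Atf5, 0.253 for Nupr1, 0.0810 for Ddit4, 0.244 for Trib3, 0.841 for Chac1, 0.682 for Stc2, 0.697 for Eif4ebp1, 0.168 for Asns, 0.0673 for Phgdh, 0.103 for Cth, 0.135 for Gpt2, 0.947 for Pycr1, 0.736 for Pck2, 0.278 for Slc7a5 and 0.167 for Slc1a5, and each had its lowest, at most 0.000115, with replicates 2 and 3 alone. The cause of these changes was not tested.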

Other observations

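The other lists gave values that belong to no member. Of 18 tested genes for amino acid sensing upstream of mTORC1, 6 were higher and 4 lower in MA9+SETDB1. The shares of all genes were 27.4% higher and 26.2% lower. Castor1, whose product senses arginine, had 15.6, 41.4 and 40.3 CPM in MA9+SETDB1, compared with 0.661, 3.32 and 2.12 CPM in MA9+EV (log2 fold change 3.99, edgeR adjusted p = 0.00202). Nprl3, a subunit gene of the GATOR1 complex, averaged 126 ± 41.6 CPM in MA9+SETDB1 and 18.4 ± 1.69 CPM in MA9+EV (SD, n = 3 each). Deptor, which encodes an mTOR inhibitor, averaged 0.482 ± 0.219 CPM in MA9+SETDB1 and 56.4 ± 28.5 CPM in MA9+EV (SD, n = 3 each), and Rptor had a log2 fold change of -0.81.

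Of 15 NRF2 antioxidant genes, 4 were higher and 6 lower, against 27.4% and 26.2% of all genes. Pgd and Gsr, for NADPH production and glutathione reduction, had log2 fold changes of -1.78 and -1.45, Gclc, for glutathione synthesis, of -1.08, and Taldo1, of the pentose phosphate pathway, of 1.51. Replicate 1 was past 1.5-fold below for 4 of the 15 in MA9+SETDB1 and for 4 in MA9+EV, against 14.1% and 14.2% of all genes. The widest was the heme oxygenase gene Hmox1, chosen after its values were seen, with 105, 138 and 137 CPM in MA9+SETDB1 replicates 1, 2 and 3 and 11.0, 121 and 114 CPM in MA9+EV replicates 1, 2 and 3.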
